A study of Mus musculus with 20 samples.

Results

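Rbfox1, Litaf, Gspt1, Mpv17l and Abcc1 are 5 of the 24062 genes counted in microglial RNA from mThy1-α-synuclein (Tg) and wild-type (WT) mice, and all of them lie within 10 Mb near the start of chromosome 16. They were chosen by position (mm10, 5 to 15 Mb) and because their RNA differed between the genotypes in the same direction at 7 and at 10 months. Those genotype differences are therefore described here with their standard errors. Their adjusted p values, where given, describe that choice and are not a test of it. The study asked how expression in microglia differs between genotypes as synucleinopathy advances. RNA came from 6 Tg and 4 WT male mice aged 7 months and from 5 Tg and 5 WT male mice aged 10 months, with every library made from 1 animal's brain and WT littermates as controls. Tg mice (labelled HEM) carry an X-linked transgene for human wild-type α-synuclein, driven by the mouse Thy-1 promoter, which is active mainly in neurons. All mice, controls included, share the strain label B6D2F1/J, a hybrid of C57BL/6J and DBA/2J. The table gives gene counts without alleles, so which parental copy of chromosome 16 a mouse carried was not tested. Cells were selected with IBA1 magnetic beads according to the sample labels and with CD11b beads according to the study's methods.

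The 5 genes have unlike functions. Rbfox1 encodes an RNA-binding splicing regulator known best from neurons, muscle and heart. Litaf encodes a small membrane protein of late endosomes and lysosomes, first described as a factor induced by lipopolysaccharide in macrophages. Gspt1 encodes eRF3a, the GTPase that works with eRF1 to end translation at stop codons. Mpv17l encodes a membrane protein of the Mpv17 family, found in peroxisomes and mitochondria and linked to the handling of reactive oxygen species. Abcc1 encodes MRP1, an ATP-driven pump that exports glutathione conjugates and leukotriene C4 from cells.

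In order along chromosome 16 (mm10), Rbfox1 occupies chr16:5885355-7411526 on the plus strand, Litaf chr16:10959275-11066157 on the minus strand, Gspt1 chr16:11219292-11254325 on the minus strand, Mpv17l chr16:13903161-13949619 on the plus strand and Abcc1 chr16:14361558-14475737 on the plus strand. RefSeq promoter sequences on the same build (GRCm38.p6) were at hand for 3 of the 5 genes, and the 250 bases before each annotated start are shown, since 2 of these genes were lower and 1 was higher in Tg mice. Each is written 5′ to 3′ in the direction of the gene, for chr16:10993122-10993371 (Litaf, minus strand), chr16:11254326-11254575 (Gspt1, minus strand) and both starts of Rbfox1, chr16:5884543-5884792 and chr16:7069585-7069834 (plus strand). The gene bodies above are those of GENCODE, so these RefSeq starts need not match their ends. The stretch shown for Litaf lies inside the Litaf body, and that of Rbfox1 start 2 inside the Rbfox1 body. Capitals mark a GC box (GGGCGG) or an ETS core (CCGGAAG) on either strand.
Litaf: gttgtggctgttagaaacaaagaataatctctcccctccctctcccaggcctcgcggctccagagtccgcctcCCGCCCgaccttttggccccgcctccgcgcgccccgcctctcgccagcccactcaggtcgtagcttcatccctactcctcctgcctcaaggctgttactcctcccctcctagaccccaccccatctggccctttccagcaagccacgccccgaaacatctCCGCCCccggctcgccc
Gspt1: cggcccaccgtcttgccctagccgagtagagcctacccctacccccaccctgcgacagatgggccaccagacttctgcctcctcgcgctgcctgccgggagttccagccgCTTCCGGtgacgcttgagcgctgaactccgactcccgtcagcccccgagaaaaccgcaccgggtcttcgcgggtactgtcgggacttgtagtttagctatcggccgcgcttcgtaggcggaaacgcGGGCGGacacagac
Rbfox1 start 1: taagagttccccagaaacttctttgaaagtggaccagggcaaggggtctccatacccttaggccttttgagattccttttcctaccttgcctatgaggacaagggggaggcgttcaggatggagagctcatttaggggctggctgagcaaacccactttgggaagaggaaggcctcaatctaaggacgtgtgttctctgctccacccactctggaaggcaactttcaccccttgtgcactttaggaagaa
Rbfox1 start 2: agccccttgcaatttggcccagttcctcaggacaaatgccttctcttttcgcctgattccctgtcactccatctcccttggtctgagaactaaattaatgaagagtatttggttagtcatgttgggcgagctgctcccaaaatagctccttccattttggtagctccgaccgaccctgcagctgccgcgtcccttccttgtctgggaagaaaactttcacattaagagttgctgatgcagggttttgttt
The stretches before Gspt1 and Litaf were rich in CpG, with 27 and 17 CpG dinucleotides and 66% and 65.6% GC, against medians of 6 CpG and 52.4% GC over 32817 mouse promoters cut to the same length. The Rbfox1 stretches held 2 and 6 CpG, with 51.2% and 48.4% GC. A GC box was matched at 2 places before Litaf and at 1 place before Gspt1, and 32.7% of all promoters hold this motif. The ETS core was matched once, before Gspt1, and occurs in 6.90% of promoters. TATAAA (12.4% of promoters) and CACGTG (6.02%) were matched in none of the 4 stretches. A match describes the letters only.

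The values are depth-normalized counts, that is, gene counts divided by a size factor for each mouse. Size factors had been found separately at each age, so levels are compared between genotypes within an age and not between ages. Fold differences and ratios to WT below are taken from means of log2(value + 1). They need not equal the ratio of the group means printed beside them. Reads counted on genes ranged from 33404096 to 77806399 per mouse, and the fewest reads behind a value of any of the 5 genes were 44 (Rbfox1 in WT mouse 1 at 10 months). Scaled to exon length, in normalized counts per kb, Gspt1 was the most abundant of the 5 genes, with mean levels of 2883 in Tg and 4856 in WT mice at 7 months and 2675 and 3415 at 10 months. Litaf came next, with levels per kb between 1241 and 1848 in the 4 groups. Mpv17l lay between 116 and 276 per kb, Abcc1 between 47.7 and 167, and Rbfox1 between 22.2 and 83.1. In WT mice Mpv17l was more abundant per kb than Abcc1, and in Tg mice Abcc1 was the more abundant of the pair at both ages.

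Rbfox1 was higher in Tg mice. At 7 months its normalized counts in Tg mice ran from 244 through a median of 389 to 455, and those of the 4 WT mice were 166, 182, 133 and 136. In the older mice, the 5 Tg animals had 351, 254, 305, 411 and 314, and the 5 WT mice 46.6, 103, 102, 124 and 113. The genotypes did not overlap at either age, and WT mouse 1 at 10 months stood below all others. Group means were 366 ± 80.3 (SD, n = 6) against 154 ± 23.6 (n = 4) at 7 months, a 2.33-fold difference (log2 fold change 1.22, SE 0.188). At 10 months they were 327 ± 58.4 against 97.5 ± 29.8 (n = 5 each), a 3.46-fold difference (log2 fold change 1.79, SE 0.240). Without WT mouse 1 the log2 fold change at 10 months was 1.55, the lowest value obtained by leaving out a mouse of that age.

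Abcc1 was also higher in Tg mice, and its WT values fell at separate levels. At 7 months Tg mice ran from 1706 through a median of 2591 to 2727 normalized counts, and the WT mice had 511, 543, 482 and 1496. The 10-month Tg mice had 2460, 2458, 2656, 2394 and 2658, and the WT mice 398, 1244, 514, 1005 and 435. Thus 6 of the 9 WT mice lay between 398 and 543 and the other 3 between 1005 and 1496, with no WT mouse in between and none in the range of the Tg mice. Means were 2383 ± 432 against 758 ± 493 at 7 months, 214% higher in Tg mice. From the log2 values the difference was 3.50-fold (log2 fold change 1.81, SE 0.324). At 10 months the means were 2525 ± 123 against 719 ± 382, 251% higher in Tg mice. From the log2 values this was 3.91-fold (log2 fold change 1.97, SE 0.311). Without WT mouse 4 at 7 months the log2 fold change at that age rose to 2.2. The pair of WT mice with high Abcc1 at 10 months, mice 2 and 4, also had the fewest reads of their group (33404096 and 35306435), whereas WT mouse 4 at 7 months had 47853976 reads, within the range of its group. The part of depth in these values was not tested.

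Gspt1 was lower in Tg mice at both ages. At 7 months Tg mice ran from 13033 through a median of 15349 to 19668, and the WT mice had 26208, 27234, 24350.1 and 27633. At 10 months the Tg mice had 15015, 15370.4, 14278, 13651 and 14285, and the WT mice 18035, 15446, 19973, 18545 and 20684. These older groups were close, since the lowest WT mouse (15446) lay just above the highest Tg mouse (15370.4). Means were 15651 ± 2344 against 26356 ± 1466 at 7 months, a ratio of 0.589 of WT (log2 fold change -0.76, SE 0.0979). The ratio was 0.787 at 10 months, with means of 14520.1 ± 678 against 18537 ± 2030 (log2 fold change -0.35, SE 0.0776).

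Litaf was lower in Tg mice by a like proportion at both ages. At 7 months Tg mice ran from 6050.4 through a median of 6992 to 8154, against 9856, 8698, 10753 and 8804 in the WT mice. The 10-month Tg mice had 6212, 6422, 6185, 6469 and 6704, and the WT mice 10291, 8720.03, 9019, 7137 and 8485. Tg mice at 10 months were the tightest of the groups for this gene, and WT mouse 4 was the WT mouse nearest to them. Means were 6905 ± 773 against 9528 ± 970 at 7 months and 6398 ± 212 against 8730.4 ± 1131 at 10 months. The ratio to WT was 0.724 at 7 months (log2 fold change -0.47, SE 0.0912) and 0.738 at 10 months (log2 fold change -0.44, SE 0.0824).

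Mpv17l was lower in Tg mice as well. At 7 months Tg mice ran from 375 through a median of 492 to 765, against 1162, 962, 1081 and 941 in the WT mice. At 10 months the Tg mice had 539, 468, 401, 354 and 424, and the WT mice 665, 546, 668, 542 and 787. The highest Tg mouse (539) and the lowest WT mouse (542) at 10 months were nearly equal. Means were 518 ± 155 against 1036 ± 104 at 7 months and 437 ± 70.3 against 642 ± 102 at 10 months. The ratio to WT was 0.484 at 7 months (log2 fold change -1.05, SE 0.185) and 0.682 at 10 months (log2 fold change -0.55, SE 0.134).

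**Figure D1:**
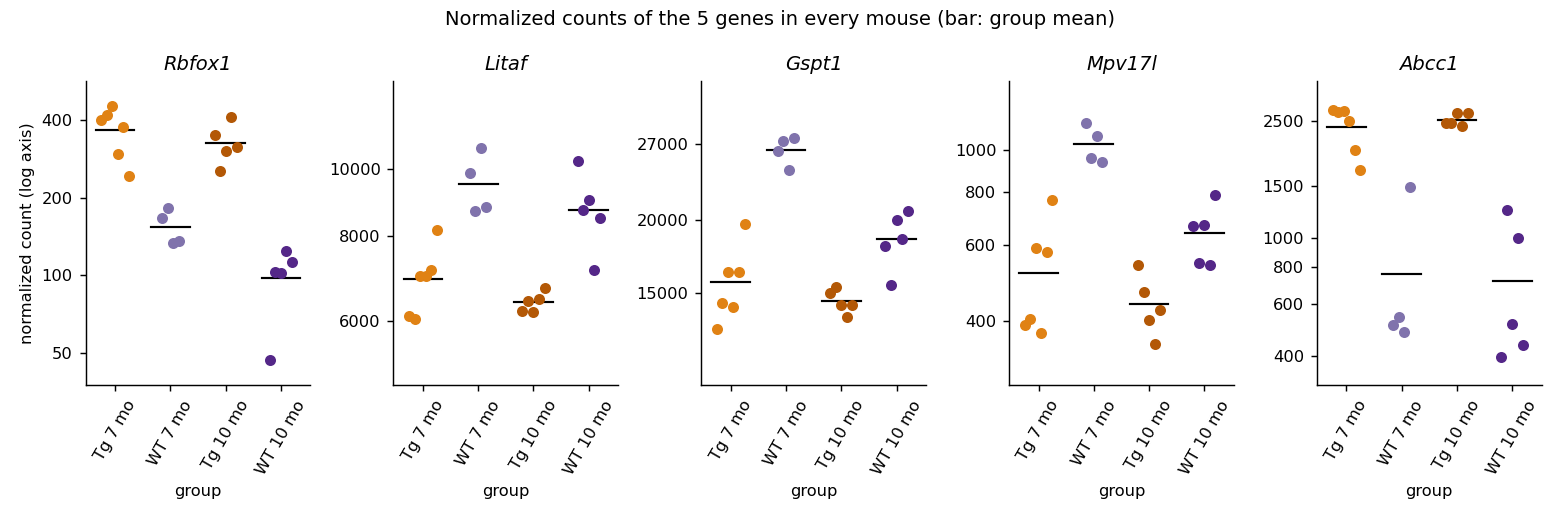
Normalized counts (vertical log axis) of Rbfox1, Litaf, Gspt1, Mpv17l and Abcc1 in every mouse, by genotype and age (horizontal axis). Each point is 1 mouse and each black bar the group mean. Tg points lie above WT points for Rbfox1 and Abcc1 and below them for Litaf, Gspt1 and Mpv17l, and 3 WT points of Abcc1 (1005 to 1496) stand apart from the other 6 (398 to 543).

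All 5 genes separated the genotypes without overlap at both ages. Among all genes tested, 7.53% did so at 7 months, 7.27% at 10 months and 0.756% at both (102 of 13484). At an adjusted p under 0.05, 684 of 13887 genes (4.93%) were called at 7 months, with 2.23% of the tested genes higher and 2.7% lower in Tg mice, and 1045 of 13627 (7.67%) at 10 months, with 3.88% higher and 3.79% lower. Calls at both ages were made for 0.734% of genes, in the same direction for 0.489% (66 genes) and in opposite directions for 0.245%. The 5 genes are among those by choice, so nothing is read from these shares. The members nearest to the cutoff were Abcc1 at 7 months (adjusted p 0.0158) and Mpv17l at 10 months (0.0247). Just outside was Clec16a, called at 10 months (0.00162) and missed at 7 months (0.0553).

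Within the Tg mice at 7 months, the same animal was nearest to the WT mice for all 5 genes. Tg mouse 6 had the lowest Rbfox1 and Abcc1 of its group (244 and 1706) and the highest Litaf, Gspt1 and Mpv17l (8154, 19668 and 765). The neighbouring genes Clec16a and Snn were likewise highest in this mouse among the Tg mice at 7 months (2275 and 12770). For Clec16a this lay inside the WT range (2068 to 2496). Tg mouse 6 also had the fewest reads of the 6 Tg mice at that age (43825004, against 45343258 in the next). Its summed oligodendrocyte markers were the lowest of the group (8019, against 8041 in Tg mouse 3). Its summed microglial markers (2747350 normalized counts over 15 genes) lay inside the range of the other 5 (2340520 to 2765140), and so did its summed neutrophil and monocyte markers (245112, in a range of 47324 to 441289 over 10 genes). Without this mouse the log2 fold changes at 7 months were 1.33 for Rbfox1, 1.90 for Abcc1, -0.83 for Gspt1, -0.52 for Litaf and -1.17 for Mpv17l. At 10 months the WT mouse nearest to the Tg mice was WT mouse 4 for Rbfox1, Litaf and Mpv17l and WT mouse 2 for Gspt1 and Abcc1, the libraries with the fewest reads of that age. Without WT mouse 4 the 10-month log2 fold changes were 1.89, -0.51 and -0.61 for Rbfox1, Litaf and Mpv17l, and without WT mouse 2 they were -0.41 and 2.2 for Gspt1 and Abcc1.

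The sizes of the genotype difference at the ages were set side by side as the effect at 10 months minus that at 7 months, on the log2 scale. Both effects had entered the choice of the genes, so this difference is given with its SE as a description and without a test. For Gspt1 it was 0.42 (SE 0.129), for Mpv17l 0.49 (SE 0.238) and for Rbfox1 0.57 (SE 0.315). For Litaf it was 0.027 (SE 0.126) and for Abcc1 0.16 (SE 0.468). The SE was largest for Abcc1, whose WT mice fell at separate levels.

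The genes around these 5 were taken by position. The stretch from 5 to 15 Mb held 73 other genes in the table, of which 44 were tested at each age. At 7 months 1 of the 44 (2.27%) passed an adjusted p of 0.05, against 4.93% of all genes. At 10 months 6 of the 44 (13.6%) did, 5 higher and 1 lower, against 7.67% of all genes (3.88% higher and 3.79% lower). At an unadjusted p under 0.05 in limma, 15 of the 44 passed at 7 months and 19 of the 44 at 10 months. These are larger shares than over all genes, 2962 of 13887 (21.3%) and 3209 of 13627 (23.5%). The median absolute log2 fold change of the neighbours was 0.19 at 7 months and 0.21 at 10 months, beside 0.17 and 0.15 over all genes. Their effects at the ages had the same sign in 21 of 43 genes tested at both (48.8%), beside 51.4% of all 13484 genes, with a Pearson correlation of 0.33 across these genes and 0.20 across all. Genes are not independent replicates, and these are descriptions.

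**Figure D2:**
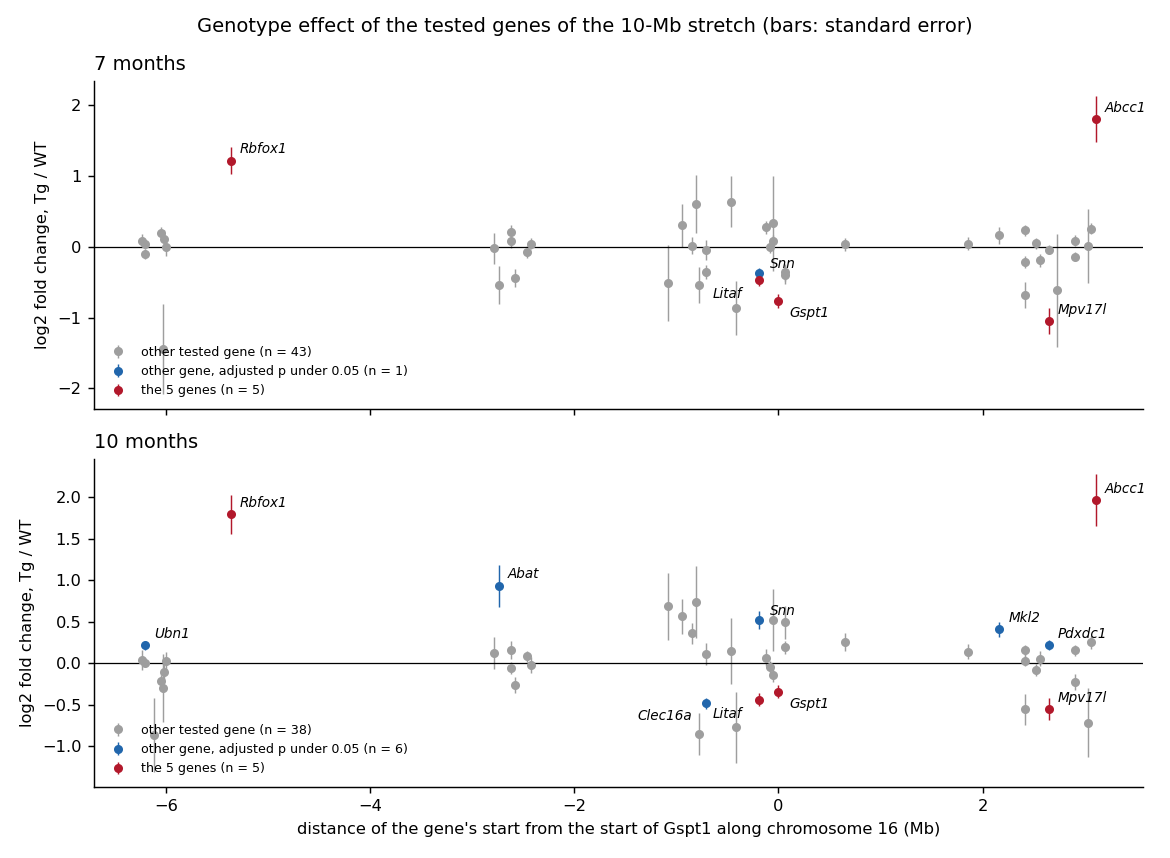
Log2 fold change (Tg over WT, vertical axis, bars 1 SE) of each tested gene between 5 and 15 Mb of chromosome 16 at 7 months (top) and 10 months (bottom), against the distance in Mb of its start from the start of Gspt1. Red marks the 5 genes, blue other genes with an adjusted p under 0.05 (1 at 7 months, 6 at 10 months) and grey the rest, and most grey points lie near 0 between the red ones.

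Snn, which encodes stannin, a small membrane protein linked to organotin toxicity, was the neighbour called at both ages, in opposite directions. Its mean was 11355 ± 997 in Tg and 14667 ± 1103 in WT mice at 7 months (log2 fold change -0.37, SE 0.0794, adjusted p = 0.0137). The means at 10 months were 11707 ± 1172 and 8246 ± 1398 (log2 fold change 0.52, SE 0.110, adjusted p = 0.0136). The difference between these effects was itself past the cutoff (0.89, SE 0.141, adjusted p = 0.000936). Leaving out WT mouse 3 at 7 months ended the 7-month call (adjusted p = 0.0544), and the 10-month call and the difference held without any 1 mouse. The annotated body of Snn, on the plus strand, overlaps that of Litaf, on the minus strand, by 5.2 kb. Whether the counting used strand is not given in the sources used here, so reads in the overlap cannot be told apart. Litaf was lower in Tg mice at both ages while Snn changed sign.

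Clec16a, which encodes an endosomal protein with a role in mitophagy, was the other neighbour with the lowest p at 10 months. Tg mice had 1573 ± 86.0 and WT mice 2204 ± 140 normalized counts at that age (log2 fold change -0.49, SE 0.0698, adjusted p = 0.00162), a call kept without any 1 mouse. At 7 months the log2 fold change was -0.36 (adjusted p = 0.0553). Genes higher in Tg mice at 10 months were Abat, the enzyme that breaks down GABA (0.93, adjusted p = 0.0381), Mkl2, a coactivator of serum response factor (0.41, 0.0194), Pdxdc1 (0.22, 0.0325) and Ubn1, a subunit of the HIRA histone chaperone complex (0.21, 0.0424). These were near the cutoff. The call of Ubn1 was lost in 9 of the 10 fits without 1 mouse and without the filter on low values (adjusted p up to 0.0968). Those of Abat and Pdxdc1 were lost in 7 each (up to 0.0945 and 0.0727) and that of Mkl2 only without Tg mouse 3 (0.0527). A replicate block in limma also ended the calls of Ubn1, Abat (adjusted p = 0.0568) and Pdxdc1 (0.0907).

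In the main limma fits, the tested genes directly beside the 5 did not share their direction at an adjusted p of 0.05, apart from Snn at 7 months. Rbfox1 was flanked by Fam86 (log2 fold change -0.0026 at 7 months and 0.025 at 10 months) and Mettl22 (-0.018 and 0.12), 629 and 1059 kb away. Litaf was flanked by Rmi2 (-0.86 and -0.77, adjusted p 0.210 and 0.299) and Snn. On the sides of Gspt1 were 2610020C07Rik, which overlaps it, with 0.33 and 0.52 (adjusted p 0.815 and 0.436), and Tnfrsf17, the B cell maturation antigen gene, with -0.39 and 0.49 (0.0878 and 0.140). Pdxdc1 ends 30 bases before Mpv17l begins, and its log2 fold change at 7 months was -0.040 where that of Mpv17l was -1.05. Marf1, on the other side of Mpv17l, had 0.089 and -0.23 (adjusted p 0.564 and 0.172). Fopnl, before Abcc1, had 0.26 and 0.25 (0.0699 and 0.0774). A joint fit of all mice and DESeq2 called Fopnl at both ages, in the direction of Abcc1. After Abcc1 no gene of the stretch was tested at both ages, so that side was not examined.

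The difference between the ages was past the cutoff in 8 of 47 neighbours tested (17.0%), against 6.36% of 14457 genes (3.74% more positive and 2.62% more negative at 10 months). In 7 of them the effect was more positive at 10 months: Snn, Abat (1.47, adjusted p = 0.0192), Tnfrsf17 (0.88, 0.0257), Snx29 (0.55, 0.0258), Parn (0.36, 0.0317), Ubn1 (0.31, 0.0356) and Nde1 (0.29, 0.0384). In Nagpa, which encodes an enzyme of lysosomal targeting, it was more negative (-0.41, 0.0150). With 1 mouse left out, Snn, Abat and Nagpa stayed past the cutoff in all 20 fits. Nde1 lost it in 15 (adjusted p up to 0.0761), Ubn1 in 11 (0.0727) and Parn in 6 (0.0695). Snx29 lost it in 2 (0.0657, without WT mouse 4 at 7 months) and Tnfrsf17 in 1 (0.0559, without WT mouse 1 at 7 months). With the replicate block in limma, Snn and Abat stayed past it and Nagpa did not (adjusted p = 0.0935). Neither did Tnfrsf17 (0.0652), Snx29 (0.0804), Parn (0.0901), Nde1 (0.116) or Ubn1 (0.177).

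**Figure D3:**
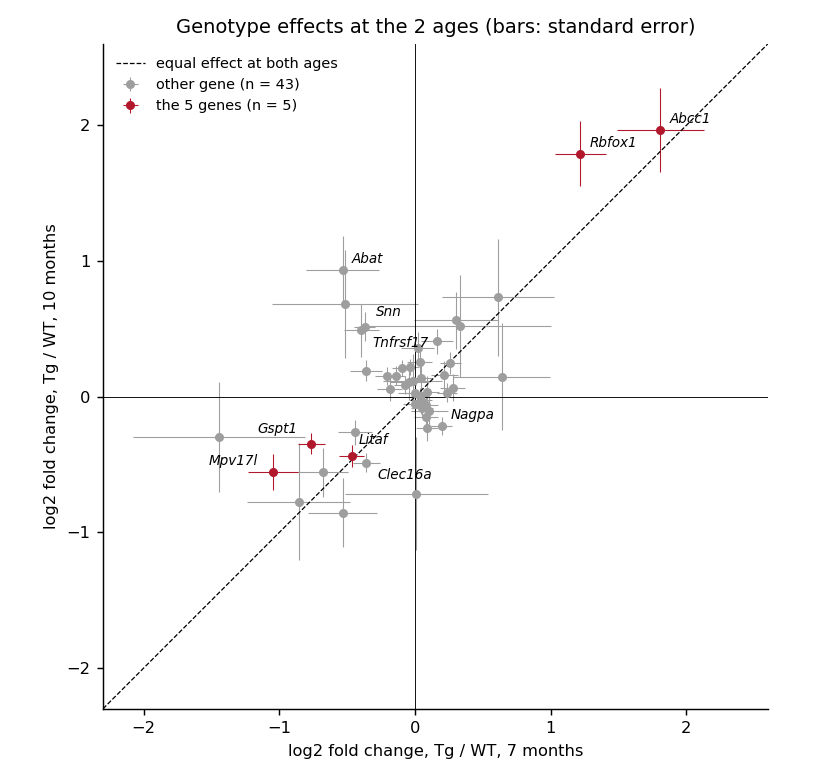
Log2 fold change (Tg over WT) at 7 months (horizontal axis) and at 10 months (vertical axis) of the 48 genes between 5 and 15 Mb of chromosome 16 tested at both ages, with bars of 1 SE. The 5 genes (red) lie in the quadrants of equal sign by choice, Gspt1, Mpv17l and Rbfox1 above the dashed line of equal effects, while Snn and Abat lie at the upper left with a lower level in Tg mice at 7 months and a higher one at 10 months.

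Along the rest of chromosome 16, 19 of 394 genes (4.82%) were called at 7 months and 32 of 389 (8.23%) at 10 months, close to the shares of all genes. A single gene there, Masp1, was called at both ages in the same direction. In bins of 10 Mb over the genome, 5 bins held 4 genes called at both ages in the same direction, 5 bins held 2 and 36 bins held 1. The bin of chromosome 16 from 10 to 20 Mb, with Litaf, Gspt1, Mpv17l and Abcc1, was 1 of the 5 bins with 4, and the others were on chromosomes 3, 6, 9 and 11. Bins were not matched for the number of genes they hold, and the position of the 5 genes was part of how they were chosen.

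Whether the genes vary together among mice of 1 group was examined with log2 values from which the mean of each mouse's own group had been taken, a measure that does not use the genotype difference. Abcc1 was left out of these tests because its WT values fall at separate levels, so the adjustment covers only the 6 pairs without it. On the same values and without a test, Abcc1 had a Pearson r of -0.59 with Litaf and -0.52 with Mpv17l. With Gspt1 its r was -0.37 and with Rbfox1 0.31. Over 20 mice, Gspt1 and Mpv17l rose and fell together (Pearson r = 0.80, permutation p = 0.00072, adjusted over 6 pairs 0.00432, Spearman rho = 0.76, permutation p = 0.00253, adjusted 0.0152). The correlation was 0.72 without the 2 mice farthest from the median of Gspt1 and 0.96 among the 6 Tg mice at 7 months. Only in the 4 WT mice at 7 months was its sign negative (-0.65). Rbfox1 and Litaf moved in opposite senses (r = -0.69, permutation p = 0.00717, adjusted 0.0215, and rho = -0.55, permutation p = 0.0219, adjusted 0.0658), with r = -0.43 without the 2 mice farthest out for Rbfox1, and among the Tg mice at 10 months r was -0.0023. Litaf and Mpv17l had r = 0.56 (permutation p = 0.0199, adjusted 0.0397) and rho = 0.49 (adjusted 0.102), with r = 0.39 without the 2 mice farthest out, and the sign was negative among the Tg mice at 10 months (-0.32). Both of these relations thus rest in part on a few mice, Tg mouse 6 at 7 months and WT mouse 1 at 10 months for Rbfox1 and Litaf. The other 3 pairs had adjusted permutation p values of 0.398 or more. Both values of a pair come from the same library and share its size factor. The permutation p values do not compare a pair with other genes. By size of r among 13483 other genes, Mpv17l ranked 784 for Litaf and Litaf ranked 355 for Mpv17l. Litaf ranked 74 for Rbfox1 and Rbfox1 ranked 174 for Litaf. Mpv17l ranked 2 for Gspt1 and Gspt1 ranked 3 for Mpv17l. Whether any pair has a link particular to its genes was not tested.

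**Figure D4:**
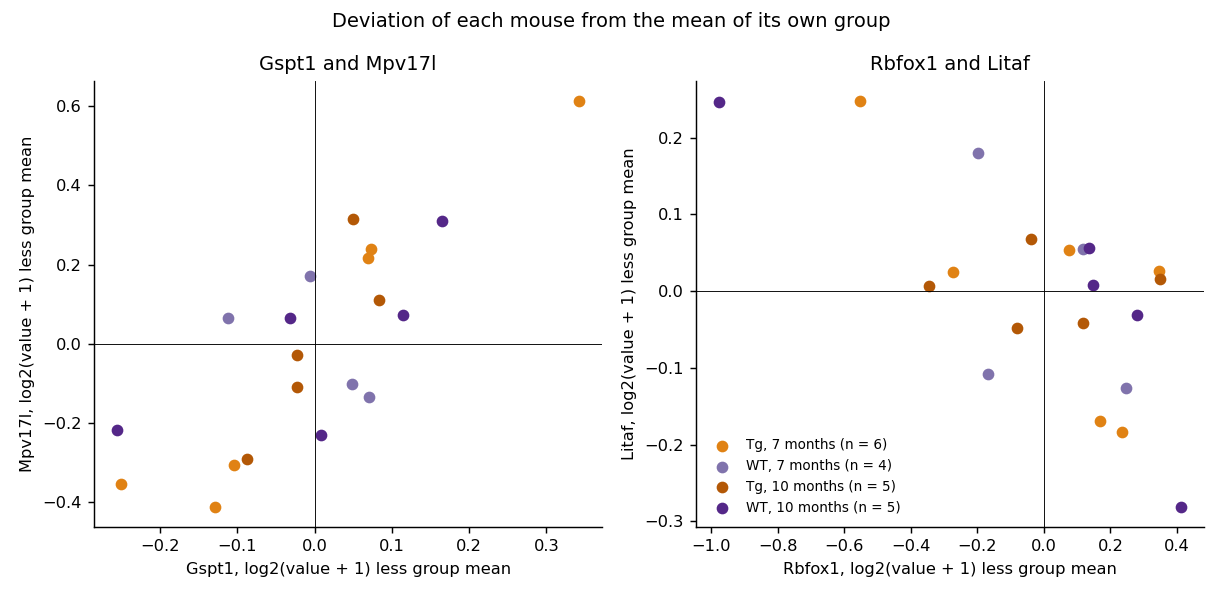
Deviation of each mouse from the mean of its own group, in log2(value + 1), for Gspt1 and Mpv17l (left) and for Rbfox1 and Litaf (right). Each point is 1 of 20 mice, coloured by group, and the left panel shows the positive relation (r = 0.80) and the right the negative one (r = -0.69) with its 2 outlying mice at the left.

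Among all 13483 other genes tested at both ages, the gene most alike Gspt1 in these deviations was Tnik, a kinase gene on chromosome 3 (r = 0.83), followed by Mpv17l (0.80) and Rbbp9 (0.80). For Mpv17l the order was Tnik (0.88), Snrpb2 (0.84) and Gspt1 (0.80). Neither Rbfox1, Litaf nor Abcc1 had another of the 5 genes among its 3 nearest. Those of Rbfox1 were Lars (-0.84), Spryd3 (-0.84) and the calcium channel gene Cacna1c (0.82). Those of Litaf were Mir3064 (-0.86), Acsl5 (0.84) and Adck5 (-0.84), and those of Abcc1 were Acyp2 (-0.85), Necap1 (0.83) and Ptpn21 (0.81). With only the mean of each age removed, so that the genotype difference enters, the nearest were Aldh1l2 (-0.96), Clec16a (-0.92) and Clec1a (0.92) for Rbfox1 and Rbfox1 (-0.91), Abcc1 (-0.90) and Tnik (0.89) for Litaf. Gspt1 and Mpv17l were nearest to each other (0.95) and then to Tnik (0.94 each) and Tmem181b-ps (-0.90 each), and Abcc1 to Ankrd50 (0.92), Gnb4 (-0.91) and Ick (0.91). All are descriptions over 20 mice without a test.

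The partners of each gene were examined as lists that leave out the 5 genes themselves. Over all tested genes, 2.23% were called higher and 2.7% lower in Tg mice at 7 months. At 10 months the shares were 3.88% and 3.79%. The counts of this and the next paragraphs stand beside these shares. Of 20 tested genes of translation termination and mRNA surveillance, none was called at 7 months (median log2 fold change -0.060, beside 0.00093 over all genes). At 10 months 3 were higher and none lower (median -0.0078): N6amt1, part of the methyltransferase that modifies eRF1 (0.41, adjusted p = 0.0218), the nonsense-mediated decay nuclease Smg6 (0.30, 0.0339) and the poly(A)-binding protein gene Pabpc1 (0.23, 0.0415). Leaving out 1 mouse ended the call of N6amt1 in 2 of 10 fits (WT mouse 2 or Tg mouse 2, adjusted p up to 0.0553), of Smg6 in 8 (0.0805) and of Pabpc1 in 9 (0.100), the last also in a joint fit of both ages. Etf1, which encodes eRF1, had log2 fold changes of -0.025 and -0.029 (adjusted p 0.894 and 0.833). Gspt2, the close relative of Gspt1, averaged only 44.1 normalized counts in Tg mice at 7 months and had -0.15 and -0.36 (0.882 and 0.624).

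Of 21 tested relatives and endosomal sorting partners of Litaf, none was called at either age (medians 0.037 and -0.030). Cdip1, a family relative, had log2 fold changes of -0.024 and 0.20 (adjusted p 0.901 and 0.0795), and Tnf had -0.041 and 0.041 (0.883 and 0.896). Among transporters of the MRP family and genes of leukotrienes and glutathione, 1 of 23 was lower at 7 months, and 3 were lower and 1 higher of 22 at 10 months (medians -0.0086 and -0.097). Alox5ap, which presents arachidonic acid to 5-lipoxygenase, was lower at both ages (-0.40, adjusted p = 0.0236, and -0.29, adjusted p = 0.0453). Those calls were lost in 3 and 7 of 10 fits without 1 mouse (adjusted p up to 0.104 and 0.111), and the 10-month call also with edgeR, without the filter and in the joint fit. At 10 months Gclc, the catalytic subunit of glutathione synthesis, was higher (0.51, adjusted p = 0.000943). Gsr, glutathione reductase, was lower (-1.39, adjusted p = 0.0110), as was the leukotriene hydrolase gene Lta4h (-0.38, adjusted p = 0.0473, lost in 9 of 10 fits without 1 mouse, up to 0.111, and without the filter on low values). None of the tested relatives Abcc3, Abcc4, Abcc5, Abcc9 and Abcc10 passed at either age, where Abcc1 differed more than 3-fold.

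Among genes of the Mpv17 family and of peroxisomes, 2 of 26 were higher at 7 months and 1 was higher at 10 months (medians 0.067 and 0.017). Abcd2 (0.60, adjusted p = 0.00183) and Abcd3 (0.29, 0.0269), which encode importers of fatty acids into peroxisomes, were higher at 7 months. The call of Abcd2 held without any 1 mouse, whereas that of Abcd3 was lost in 5 of 10 fits (adjusted p up to 0.108). Pex7, an import receptor of peroxisomes, was higher at 10 months (0.34, adjusted p = 0.0175). Mpv17 and Mpv17l2, the closest relatives of Mpv17l, passed at neither age (adjusted p 0.218 or more).

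Rbfox1 is a gene with a known neuronal role, so its relatives and the markers of neurons were read beside it. Of 16 tested Rbfox relatives and neuronal splicing factors, Rbfox3 (-1.65, adjusted p = 0.0254) and Elavl3 (-1.75, 0.00671) were lower in Tg mice at 7 months, and of 15 at 10 months none was called (medians -0.32 and 0.14). The call of Rbfox3 was lost without WT mouse 1 or WT mouse 2 (adjusted p up to 0.119), and its mean in Tg mice was only 28.2 normalized counts. Of 18 tested neuron markers, 7 were lower and none higher at 7 months, when Rbfox1 was higher. The summed neuron markers (20 genes) lay between 2172 and 2625 in Tg and between 3024 and 3507 in WT mice at 7 months, and between 2104 and 2636 in Tg and 2060 and 2477 in WT mice at 10 months. At 10 months 1 of 16 neuron markers was lower. At 7 months Rbfox1 was higher and the neuron marker sums were lower in Tg mice. At 10 months Rbfox1 was higher while the sums overlapped. The markers did not all share a direction at 7 months. Map2 (log2 fold change 0.50), Syp (0.19) and Dlg4 (0.041) were positive without a call, and the other tested markers were negative. The part of neurons in the Rbfox1 values was not tested. In bulk RNA, fewer cells of a type and less RNA per cell cannot be told apart.

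Markers of other cells gave the following beside the 5 genes. Over all tested genes, 2.23% were higher and 2.7% lower at 7 months, and 3.88% and 3.79% at 10 months. Of 15 microglia markers 1 was higher in Tg mice at 7 months and 4 at 10 months, with none lower, and their sums overlapped between genotypes at 7 months (2340520 to 2765140 in Tg and 2297070 to 2611420 in WT mice). All 15 were present in every mouse. Astrocyte markers at 7 months were lower for 7 and higher for 1 of 14, and at 10 months 1 of 13 was higher and none lower. At 7 months oligodendrocyte and endothelial or mural markers were lower for 3 of 12 each. Summed oligodendrocyte markers did not overlap at 7 months (8019 to 10359 in Tg and 12973 to 18423 in WT mice). At 10 months 4 of 9 border macrophage markers were lower, with sums of 19989 to 25882 in Tg and 27007 to 37448 in WT mice, and 1 of 10 neutrophil and monocyte markers was lower, with sums of 72973 to 193344 and 154100 to 386393. Lymphocyte markers were lower for 2 of 6 at 10 months. No marker was at 0 in all mice. The part of other cells in the values of Litaf, Gspt1, Mpv17l and Abcc1 was not tested.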

How the data were processed

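RNA-seq was done on microglia of 20 mice. Per the labels and methods, the authors used Trim Galore 0.6.7 for trimming, HISAT2 2.2.1 for mapping to mm10, featureCounts for gene counts and DESeq2 for size factors. The deposited signal values are gene counts divided by those factors. Whole reads were recovered, since 100% of the values of each mouse were whole multiples of 1 step (tolerance 0.01 reads). The reciprocals of the steps equalled DESeq2 size factors computed within each age. In Tg mouse 5 at 10 months the step was too close to 1 to test.

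Genotypes were compared within each age with limma 3.58.1 (R 4.3.3) on log2(value + 1), using robust estimation and a trend of variance with mean. Genes entered the test if they reached 10 in 4 or more mice at 7 months, 5 or more at 10 months, and 4 or more of all 20 for the difference between ages. Adjustment followed Benjamini-Hochberg over all tested genes, with a cutoff of 0.05. Fold changes are on this log2 scale, which understates changes of low genes. Pair correlations used two-sided permutation tests with 100000 permutations within groups. The fits were tested on simulated data. Alternatives were pseudocounts of 0.5 and 5, no filter, edgeR 4.0.16 and DESeq2 1.42.0 on recovered reads, 1 fit of all mice, a replicate block and leaving out each mouse. Positions are from GENCODE M21 and RefSeq (mm10) and covered 99.6% of tested genes. Named were the 5 genes, their nearest tested neighbours, other called genes of the stretch, called or related genes of the function lists and the 3 genes most alike each. Nagpa, Snx29, Parn, Nde1, Masp1, Etf1, Tnf, 3110001I22Rik, Map2, Syp and Dlg4 were named after their values were seen. Results for some genes of the lists are not reported here. The genes and lists were chosen with earlier results of these data known.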

Additional observations from a re-analysis of the deposited data

Results flagged for a closer look

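Among 64 combinations of a gene and a group (16 genes of the stretch in 4 groups), 3 had a mouse far from the others of its group by Dixon's criterion at the 95% level, which chance meets in about 1 of 20 groups. Rbfox1 in WT mouse 1 at 10 months was 46.6 normalized counts, with the next lowest mouse at 102. Abcc1 in WT mouse 4 at 7 months was 1496, with the next highest at 543. Ubn1 in Tg mouse 4 at 10 months was 5215, with the next lowest at 5871.

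In 8 neighbours of the 5 genes the genotype effect differed between the ages in limma's interaction test (10 minus 7 months, log2 scale). It was 0.89 for Snn (adjusted p = 0.000936), 1.47 for Abat (0.0192), 0.88 for Tnfrsf17 (0.0257) and 0.55 for Snx29 (0.0258). It was 0.36 for Parn (0.0317), 0.31 for Ubn1 (0.0356), 0.29 for Nde1 (0.0384) and -0.41 for Nagpa (0.0150). Of these only Snn and Abat stayed past the cutoff in every alternative fit.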

How the results depend on the processing

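Each log2 fold change of the 5 genes at each age kept its sign and moved by less than the SD between mice. This held in each of its 17 alternative fits (170 values over all genes and ages). The differences between ages also moved by less than that SD, though those of Litaf (-0.043 to 0.089) and Abcc1 (-0.23 to 0.39) changed sign when single mice were left out. The 5 genes were chosen by these differences, so passing the cutoff came with the choice and is not read as support. In limma, Abcc1 missed it at 7 months with the replicate block (adjusted p = 0.0965) and without WT mouse 1, 2 or 3 (up to 0.0609). Mpv17l missed it at 10 months without Tg mouse 3 or 5 or WT mouse 1, 3 or 5 (up to 0.0606). In the other fits all 5 genes were past it at both ages. Genes called at 7 months numbered 1158 with DESeq2, 414 with the replicate block and 282 to 858 without 1 mouse. At 10 months there were 1694 with DESeq2 and 497 to 1235 without 1 mouse. For the difference between ages there were 482 with the block and 618 to 1096 without 1 mouse. Among named genes of the lists, the block ended the calls of Abcd3 and Rbfox3 at 7 months. It also ended those of Smg6, Pabpc1 and Alox5ap at 10 months. Of the neighbours, a joint fit of all mice called 7 at 7 months, DESeq2 called 5, edgeR, a pseudocount of 5 and the block 2 each, and the fits without 1 mouse 1 to 3. At 10 months 11 were called with DESeq2 and 2 to 6 without 1 mouse. At both ages the joint fit called 3, with 4 by DESeq2, 2 with the block and 0 to 2 without 1 mouse. Clec16a and Fopnl were among them with the same direction in the joint fit and with DESeq2. With DESeq2, 3110001I22Rik was as well. In the main limma fits its log2 fold changes were -0.68 and -0.56 (adjusted p 0.0507 at 7 and 0.0787 at 10 months). The cause was not tested.

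The replicate numbers do not pair the mice: same-numbered Tg and WT mice had correlations of their deviations between -0.13 and 0.10, and no WT mouse correlated best with its own number. Each group holds 4 to 6 mice, which limits the precision, and the WT values of Rbfox1 at 10 months rest on 44 to 163 reads.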
